A study of Mus musculus with 4 samples.

Results

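The Hox genes of the mouse encode homeodomain transcription factors that give cells their position along the body axis. RNA of all 39 protein-coding Hox genes was examined in 4 tumours of the mammary gland, all of the genotype MMTV-R26Met, as part of a table of 28440 genes. The 39 genes are those with symbols made of Hox, a cluster letter and a number, and all were present in the table. They lie in 4 clusters, with 11 genes in Hoxa on chromosome 6, 10 in Hoxb on chromosome 11, 9 in Hoxc on chromosome 15 and 9 in Hoxd on chromosome 2 (GRCm38). In this model of triple-negative breast cancer the promoter of the mouse mammary tumour virus drives activation, in the mammary gland, of a transgene for the receptor Met placed at Rosa26. The 4 tumours, numbered 1 to 4, form 1 group with no treatment, no time series and no normal gland beside them, so the question is which Hox genes these tumours express and how far the tumours differ. The labels state neither the age of the mice, nor which gland each tumour came from, nor whether the tumours came from separate mice, so p-values describe the spread between these 4 samples only.

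Within a cluster, Hox genes are numbered by paralogue group in the order in which they lie on the chromosome. Genes at the low-numbered end are active in anterior tissues and respond early to retinoic acid, whereas genes at the high-numbered end are active in posterior tissues and limbs. Polycomb proteins hold silent clusters in a repressed state and Trithorax (MLL) proteins keep active ones open, while the TALE homeodomain proteins Pbx and Meis bind DNA together with Hox proteins. In the mouse mammary gland, paralogue group 9 genes act together in the growth of the gland at pregnancy, Hoxc8 takes part in placing the embryonic mammary buds, and Hoxa5 is needed for normal gland development and nursing.

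The libraries held 35220504 to 42809015 counts, and each pair differed far beyond counting error. Levels are given as CPM, that is, counts brought to a common library size by TMM scaling. A listed 0 allows for up to 3 counts, which equal 0.0706 to 0.0865 CPM. The tissue label was checked with markers: luminal epithelial markers (Krt8, Krt18, Epcam and others, 7 of 7 with at least 10 counts in some library) summed to 2137, 3429, 2807 and 3651 CPM in tumours 1 to 4. Tumour 3 stood apart in skeletal muscle markers, which summed to 1002 CPM there and to 1.61 to 2.08 CPM in the other tumours. In bulk RNA, fewer cells of a type and less RNA per cell cannot be told apart.

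The promoters of 4 Hoxa genes are shown here because their transcripts passed a test for spread between the tumours under at least 1 of the count minimums given with the results and the windows hold a match to a searched motif. They are windows of 300 bases, most of each before the annotated start, from RefSeq (GRCm38.p6), read on the minus strand on which all Hoxa genes lie. Capitals mark matches, on either strand, to TGATNNAT (bound by Pbx with Hox proteins), AGGTCA (part of the sites of retinoid receptors), TTTATG (bound by Cdx proteins) or TATAAA (the TATA box). The Hoxa2 window at chr6:52164782-52165081 holds 1 TGATNNAT match, the Hoxa5 window at chr6:52204538-52204837 holds 1 AGGTCA match, the Hoxa7 window at chr6:52218524-52218823 holds 2 TTTATG matches, and the inner of the 2 Hoxa10 windows at chr6:52234890-52235189 holds 1 TATAAA match.
Hoxa2: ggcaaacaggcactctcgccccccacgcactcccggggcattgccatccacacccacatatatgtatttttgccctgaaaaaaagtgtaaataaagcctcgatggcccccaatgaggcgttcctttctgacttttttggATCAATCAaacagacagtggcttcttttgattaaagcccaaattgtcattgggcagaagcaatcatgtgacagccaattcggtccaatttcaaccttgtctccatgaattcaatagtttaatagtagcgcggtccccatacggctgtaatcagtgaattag
Hoxa5: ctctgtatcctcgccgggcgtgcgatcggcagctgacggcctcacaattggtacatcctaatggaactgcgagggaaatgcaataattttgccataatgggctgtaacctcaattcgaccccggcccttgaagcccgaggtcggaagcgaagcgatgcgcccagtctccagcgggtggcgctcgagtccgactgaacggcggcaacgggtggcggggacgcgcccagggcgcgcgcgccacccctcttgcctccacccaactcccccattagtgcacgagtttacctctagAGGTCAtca
Hoxa7: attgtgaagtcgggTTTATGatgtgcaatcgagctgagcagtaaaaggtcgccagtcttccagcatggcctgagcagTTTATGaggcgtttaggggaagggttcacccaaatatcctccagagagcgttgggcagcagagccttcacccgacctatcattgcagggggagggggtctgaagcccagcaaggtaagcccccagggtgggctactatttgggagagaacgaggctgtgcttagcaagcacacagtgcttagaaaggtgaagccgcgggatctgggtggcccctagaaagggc
Hoxa10: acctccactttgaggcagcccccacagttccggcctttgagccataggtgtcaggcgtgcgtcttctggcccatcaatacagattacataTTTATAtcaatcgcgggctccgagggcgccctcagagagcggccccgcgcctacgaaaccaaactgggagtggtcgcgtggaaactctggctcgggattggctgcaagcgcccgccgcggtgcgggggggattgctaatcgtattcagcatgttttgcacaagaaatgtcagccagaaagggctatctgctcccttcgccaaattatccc

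The RefSeq table holds 24 promoter windows for 22 of the 39 genes, among them 10 windows for 9 Hoxa genes. The sets of letters are common: TGATNNAT is present in 8.85% of all 32851 promoter windows, AGGTCA in 16.3%, AGTTCA (a variant of AGGTCA, with no match in a Hoxa window) in 14.0%, TTTATG in 11.9% and TATAAA in 13.6%. The windows of Hoxa3, which passed as well, and of Hoxa6 hold none of these. Among the 24 Hox windows, 7 (29.2%) hold AGGTCA, of which 6 lie in the other clusters. Hox windows had a median of 14.5 CG dinucleotides per 300 bases, against 7 over all windows. The 5 windows of Hoxa2 to Hoxa7 had a median of 20 and ranged from 9 at Hoxa2 and Hoxa7 to 29 at Hoxa5. These matches are letters in a window and no factor was measured on them.

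Most Hox RNA came from the Hoxa cluster in tumours 1, 2 and 3 but not in tumour 4. Summed over its 11 genes, Hoxa reached 37.5, 26.4, 86.0 and 2.65 CPM in tumours 1 to 4, a mean of 38.1 ± 35.1 CPM (SD, n = 4). Tumour 3 was highest, tumours 1 and 2 lay between, and tumour 4 was 32.4-fold below tumour 3. These sums rest on 1594, 915, 3300 and 109 counts. Hoxa genes took 86.0%, 79.9%, 91.7% and 22.5% of the Hox counts of tumours 1 to 4.

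The sums of the other clusters were low in every tumour and spanned a smaller range. Hoxb summed to 2.61, 2.83, 1.98 and 3.65 CPM (mean 2.77 ± 0.691, SD, n = 4), with tumour 4 highest. Hoxc summed to 1.46, 2.39, 4.27 and 4.07 CPM (mean 3.05 ± 1.35), with tumours 3 and 4 above tumours 1 and 2. Hoxd summed to 2.05, 1.41, 1.49 and 1.41 CPM (mean 1.59 ± 0.306), a 1.45-fold range. The highest sum over the lowest was 1.84-fold for Hoxb and 2.93-fold for Hoxc. In tumour 4, Hoxb, Hoxc and Hoxd gave 31.0%, 34.5% and 12.0% of the Hox counts.

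**Figure D1:**
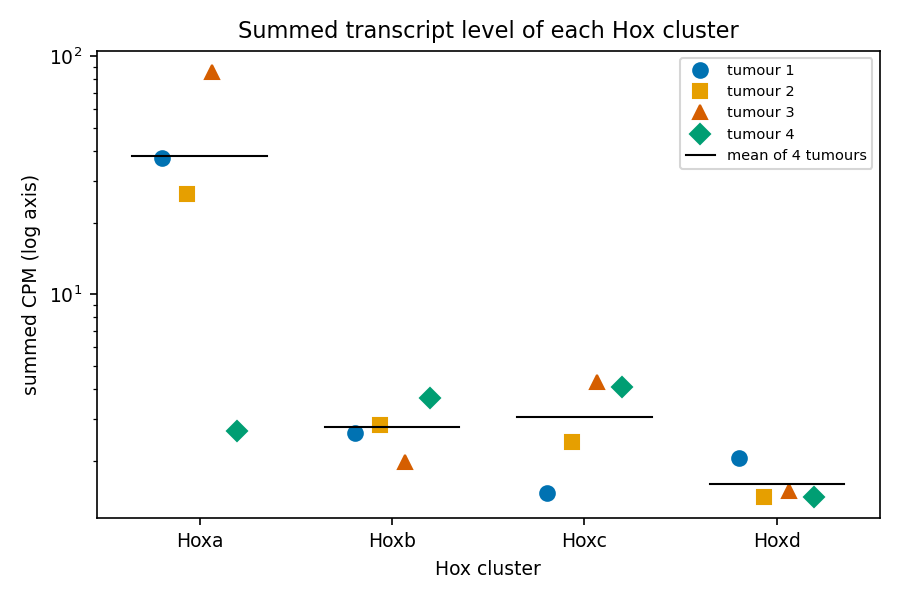
Summed TMM-scaled CPM (log axis) of the genes of each Hox cluster in each of the 4 tumours, with a line at the mean. The Hoxa points run over a wide range, with 86.0 CPM in tumour 3 and 2.65 CPM in tumour 4, while the points of the other clusters all lie between 1.41 and 4.27 CPM.

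Of the 39 genes, 21 had at least 10 counts in some tumour, 10 had them in all 4 tumours, and 6 had 0 counts in every tumour (Hoxa13, Hoxb1, Hoxc12, Hoxd1, Hoxd12 and Hoxd13). Detection differed by position in the cluster: 5 of 8 anterior genes (groups 1 to 3), 12 of 15 central genes (groups 4 to 8) and 4 of 16 posterior genes (groups 9 to 13) reached 10 counts somewhere. Per kilobase of exon, the 8 highest Hox genes were all from Hoxa. Among them, Hoxa5 led with 4.23 ± 2.83 CPM per kb (SD, n = 4), followed by Hoxa6 with 3.28, Hoxa7 with 2.76, Hoxa2 with 1.67, Hoxa3 with 1.45, Hoxa4 with 0.867 and Hoxa10 with 0.643 CPM per kb. The next were Hoxb4 with 0.423, Hoxc6 with 0.393 and Hoxd8 with 0.369 CPM per kb. Neighbours in this order differed by less than the larger of their SDs over the tumours.

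**Figure D2:**
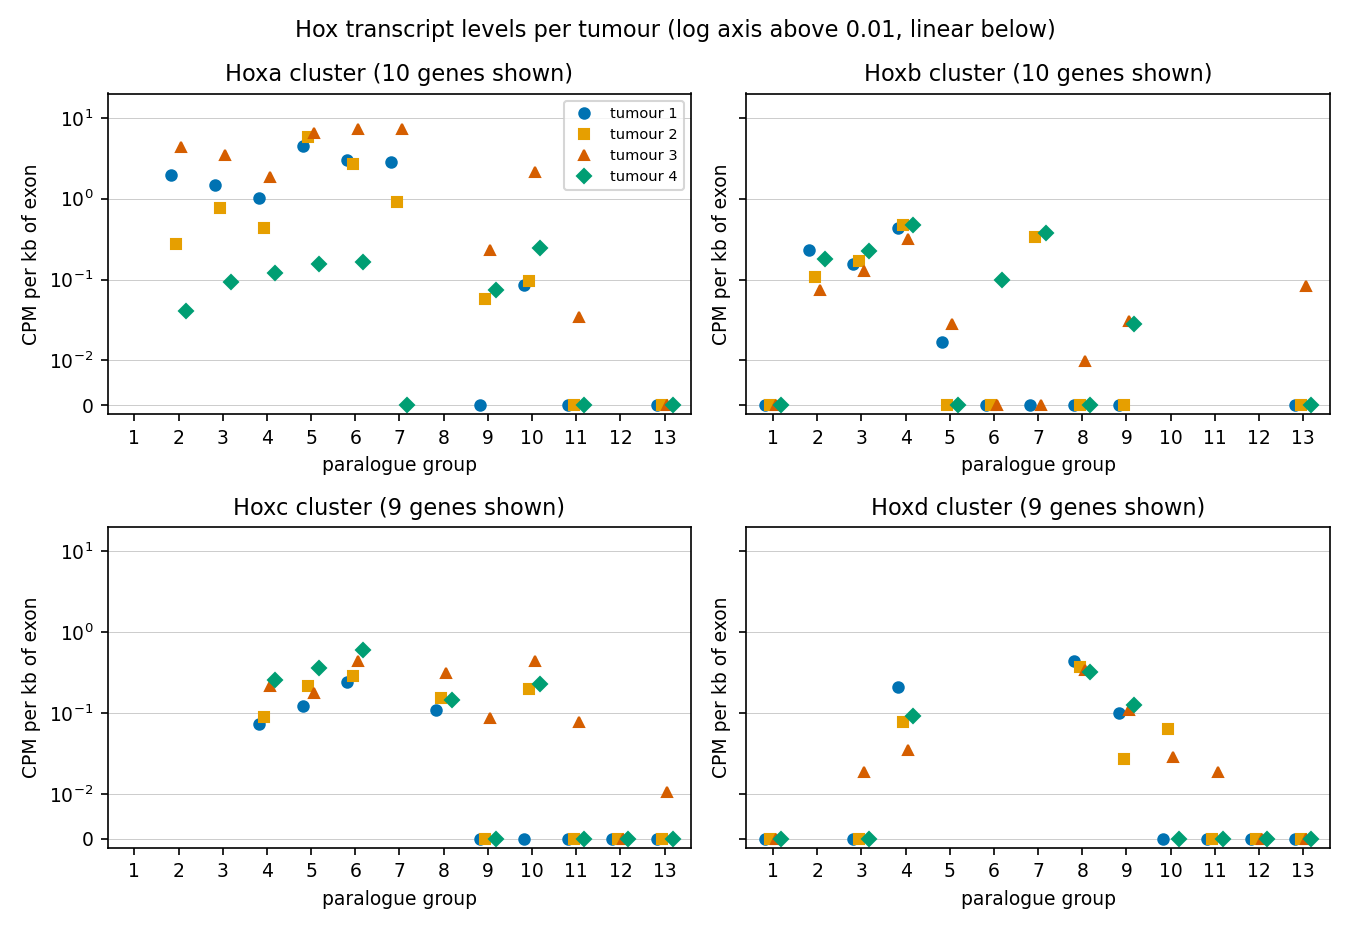
CPM per kb of exon of the Hox genes reported here in each tumour, by paralogue group (symmetrical log axis, linear below 0.01). In Hoxa, tumour 4 lies below the other tumours for groups 2 to 7 but not for groups 9 and 10; in the other clusters values are low, Hoxb7 is at 0 in tumours 1 and 3 and Hoxc10 is at 0 in tumour 1.

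A spread test, an edgeR negative binomial fit to all genes, asked whether a gene's values differed among the tumours by more than the trend over genes at its level, at a Benjamini-Hochberg adjusted p threshold of 0.05. With a count minimum required in all 4 libraries, 3 of 10 tested Hox genes passed, all in Hoxa (Hoxa3, Hoxa5 and Hoxa10, which are all the Hoxa genes tested), against 574 of 15808 genes overall (3.63%). That minimum removes a gene nearly absent in tumour 4, as most Hoxa genes were. With the minimum required in only 1 library, 6 of 21 Hox genes passed, namely Hoxa2, Hoxa3, Hoxa5, Hoxa7, Hoxa10 and Hoxb7, against 945 of 18870 overall (5.01%). Before adjustment 8 of 9 Hoxa genes and 10 of 21 Hox genes had an edgeR p under 0.05 at that minimum, against 10.12% of all genes. With no count filter 5 of 33 Hox genes passed, against 895 of 23632 overall (3.79%). Without tumour 3 the count was 1 (Hoxa5) at the first minimum and 3 at the second, and without tumour 4 it was 1 (Hoxa10) and 2. Without tumour 1 and without tumour 2 it was 3 at the first minimum and 4 at the second. DESeq2, which calls genes whose dispersion lies far above its trend, called 0 Hox genes and 91 genes in all.

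The anterior Hoxa genes described here shared the order of tumours seen in the sum. Hoxa2, which patterns the face and hindbrain, had 147, 17, 301 and 3 counts in tumours 1 to 4, or 3.46, 0.490, 7.85 and 0.0731 CPM. Here tumour 2 was low as well as tumour 4: tumour 3 exceeded tumour 2 by 16.0-fold (9.83 to 27.8). The tumour 3 over tumour 4 ratio was 107 (36.4 to 524), with 3 counts in tumour 4. Hoxa2 passed at the minimum in 1 library (edgeR adjusted p = 0.0113) but not without tumour 4 (0.275).

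Hoxa3, needed for the thymus and parathyroid, had 375, 158, 802 and 23 counts, or 8.82, 4.56, 20.9 and 0.560 CPM, with a tumour 3 over tumour 4 ratio of 37.3 (24.7 to 59.2). It passed the spread test (edgeR adjusted p = 0.00785), but not without tumour 3 (0.0729) or without tumour 4 (0.681). The span of Hoxa3 runs across 8 other annotated genes and 27.1% of its exon length is shared with other genes, so some of its reads may belong to them.

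Of the central Hoxa genes, Hoxa4 had the lowest mean per kilobase. It had 70, 24, 115 and 8 counts (1.65, 0.692, 3.00 and 0.195 CPM). Its tumour 3 over tumour 4 ratio was 15.4 (7.55 to 36.5) and it did not pass (edgeR adjusted p = 0.794, minimum in 1 library). Hoxa6, a regulator of the axial skeleton, had 112, 82, 243 and 6 counts (2.63, 2.37, 6.33 and 0.146 CPM), a ratio of 43.3 (19.6 to 119), and an edgeR adjusted p of 0.206 at the same minimum. Both genes had the order tumour 3, 1, 2, 4.

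Hoxa5, needed for lung development, was the most even of the Hoxa genes over tumours 1 to 3 and was far lower, though still detected, in tumour 4. It had 363, 373, 466 and 12 counts, or 8.54, 10.8, 12.1 and 0.292 CPM. Tumour 3 exceeded tumour 2 by 1.13-fold, with an interval of 0.983 to 1.30 that includes equality, and exceeded tumour 4 by 41.6-fold (23.6 to 81.0). Hoxa5 passed the spread test (edgeR adjusted p = 0.0114), and its SD of log2 CPM, 2.47, was above that of 99.4% of the genes tested. Without tumour 4 the adjusted p was 1.00, and without tumour 2 at the minimum in 1 library it was 0.0502. None of its exon length is shared with another gene.

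Hoxa7, a regulator of the thoracic skeleton, had the largest SD of log2 CPM of the 39 genes, 3.82, with 349, 92, 800 and 0 counts (8.21, 2.65, 20.9 and 0 CPM). Tumour 3 was at least 285-fold higher than tumour 4, taking 3 counts as the floor of that library, and 7.86-fold (6.33 to 9.86) above tumour 2. Hoxa7 passed at the minimum in 1 library (edgeR adjusted p = 4.64e-06) but not without tumour 4 (0.279). It shares 20.4% of its exon length with the antisense RNA Hoxaas3. A listed 0 needs care in this table: among 1011 genes with 10 to 40 counts in each of the other libraries, 17 were listed at 0 in tumour 4 and 8 had 1 to 3 counts there.

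The detected posterior Hoxa genes followed another order. Hoxa10, which acts in the uterus, had 12, 11, 269 and 33 counts, or 0.282, 0.317, 7.01 and 0.804 CPM. Tumour 3 stood alone, 24.8-fold (14.0 to 48.7) above tumour 1 and 8.72-fold (6.06 to 12.9) above tumour 4, and tumour 4 was the second highest. Hoxa10 passed the spread test (edgeR adjusted p = 0.000273), but not without tumour 3 (1.00), and at the minimum in 1 library it passed with 0.0433 and not without tumour 1 (0.133) or tumour 2 (0.145). With no count filter its adjusted p was 0.0566.

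Hoxa9, a regulator of blood stem cells and of the mammary gland, had 0, 11, 49 and 17 counts (0, 0.317, 1.28 and 0.414 CPM) and did not pass (edgeR adjusted p = 0.157, minimum in 1 library). Tumour 3 was 3.08-fold (1.75 to 5.71) above tumour 4 and at least 18.1-fold above tumour 1, where 10 of 990 genes with 10 to 40 counts in each of the other libraries were also listed at 0. Hoxa11, which acts in the uterus and forelimb, had 3 counts in tumour 3 and 0 elsewhere, and Hoxa13, needed for digits and the genital tract, had 0 in all.

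Tumour 3 had the highest value for all 9 Hoxa genes with at least 10 counts in some tumour, and tumour 4 the lowest for 7 of the 9, those up to and including Hoxa7. Over the 19023 genes of the table with that level, tumour 3 was highest for 30.2% and tumour 4 lowest for 27.1%. The break fell between Hoxa7 and Hoxa9. The genes up to Hoxa7 summed to 37.2, 25.8, 77.6 and 1.44 CPM, which is 54.0-fold higher in tumour 3 than in tumour 4. Hoxa9 to Hoxa13 summed to 0.282, 0.635, 8.37 and 1.22 CPM, which is 6.87-fold higher in tumour 3 than in tumour 4. Tumour 4 had less RNA of the genes up to Hoxa7 than tumours 1 and 2 but a higher sum of the posterior genes. That sum came mostly from Hoxa10, with 33 counts in tumour 4, against 17 for Hoxa9. For Hoxa9 the ratio of tumour 2 over tumour 4 was 0.766, with an interval of 0.324 to 1.73 that includes equality.

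The make-up of Hoxa RNA differed with it. Hoxa9 to Hoxa13 gave 0.753%, 2.40%, 9.73% and 45.9% of the Hoxa counts of tumours 1 to 4, with an exact 95% binomial interval of 36.3% to 55.7% in tumour 4. Hoxa10 alone gave 30.3% of the 109 Hoxa counts of tumour 4 (21.8% to 39.8%). In tumour 2, Hoxa5 gave 40.8% (37.6% to 44.0%), against 22.8% in tumour 1 and 14.1% in tumour 3, while Hoxa2 gave 1.86% (1.09% to 2.96%), against 9.22% and 9.12%. Tumours 1 and 3, which differed 2.29-fold in summed Hoxa level, had similar shares of Hoxa2, Hoxa3, Hoxa6 and Hoxa7. These intervals cover counting error only.

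**Figure D3:**
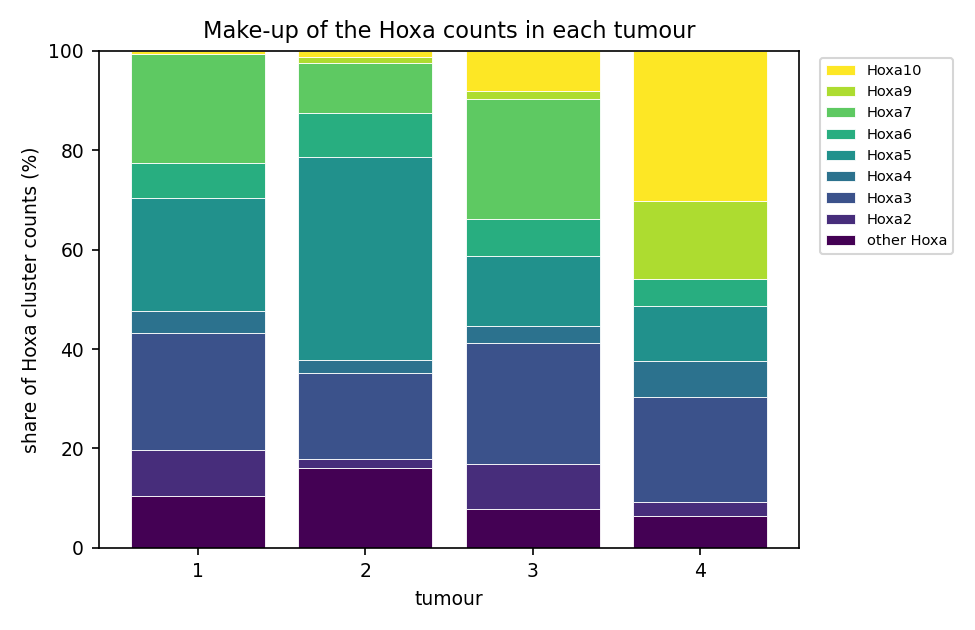
Share (%) of the Hoxa counts of each tumour that fell on each Hoxa gene, stacked in cluster order, with genes not shown by name pooled. The posterior genes take 45.9% of the bar of tumour 4 and at most 9.73% of the others, and Hoxa5 takes 40.8% of the bar of tumour 2.

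Non-coding RNAs inside the Hoxa cluster had the same extremes. The table held 8 of them, of which 6 had at least 10 counts in some tumour. For all 6 the highest value was that of tumour 3 and the lowest that of tumour 4, though for Hoxaas2 tumours 2 and 3 were level at 0.808 CPM. Over all genes with that level the shares were 30.2% and 27.1%. Hotairm1, transcribed beside Hoxa2 and known from human myeloid cells, had 7.90, 8.83, 12.3 and 0.877 CPM and did not pass (edgeR adjusted p = 0.216). Hoxaas3, which overlaps Hoxa5 and Hoxa6 on the opposite strand, had 8.21, 8.08, 21.8 and 0.511 CPM and passed (edgeR adjusted p = 0.00663), but no RNA of the cluster list passed in edgeR without tumour 4, where 1 of 4 had an unadjusted p under 0.05.

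A pair of RNAs transcribed within the long span of Hoxa3, beside and across Hoxa4, shared with Hoxa2 a low value in tumour 2. The RNA 5730596B20Rik had 170, 10, 249 and 7 counts (4.00, 0.288, 6.49 and 0.170 CPM; edgeR adjusted p = 0.0267 at the minimum in 1 library), and LOC115490409 had 61, 9, 101 and 0 counts (0.0215). Whether counting used strand is not stated, so reads of these RNAs and of the Hox genes they overlap cannot be told apart. Both were named after their values were seen. Of the 18 cluster RNAs listed for comparison, 10 were in the table and the microRNAs were not used here. Of 3 tested at the minimum in all libraries 1 passed, Hoxaas3, against 3.63% of all genes. At the minimum in 1 library 1 of 5 passed, again Hoxaas3, against 5.01% of all genes. Halr1, which lies outside the cluster at its anterior end, had 0.964, 0.808, 5.45 and 0.999 CPM (edgeR adjusted p = 0.181), so tumour 4 was level with tumours 1 and 2 there.

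The genes on either side of the cluster varied over a smaller range than the Hoxa genes, though some had the same extremes. Skap2, on the anterior side, had 145, 159, 206 and 82.7 CPM, with tumour 3 at the top and tumour 4 at the bottom of a 2.49-fold range. Snx10, further out, had 42.9, 40.7, 62.7 and 29.7 CPM, in the order of the Hoxa sum. Hibadh, on the posterior side, had 64.0, 66.7, 51.4 and 53.8 CPM, and Tax1bp1 had 251, 316, 312 and 329 CPM. Evx1, the homeobox gene next to Hoxa13, had 0 counts in every tumour. Around all 4 clusters, 0 of 14 tested flanking genes passed the edgeR spread test, which for so few genes is near the 3.63% of all genes. At an unadjusted p under 0.05 there were 0, against 8.74% of all genes, and DESeq2 called 0. At the minimum in 1 library 0 of 15 flanking genes passed, against 5.01% of all genes. There 1 had an unadjusted p under 0.05, against 10.12% of all genes. The most expressed of them, Hnrnpa1 beside Hoxc, had 604, 510, 507 and 359 CPM, and Cbx5, with the largest spread of the 14 tested at the minimum in all libraries, had 338, 288, 394 and 146 CPM.

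**Figure D4:**
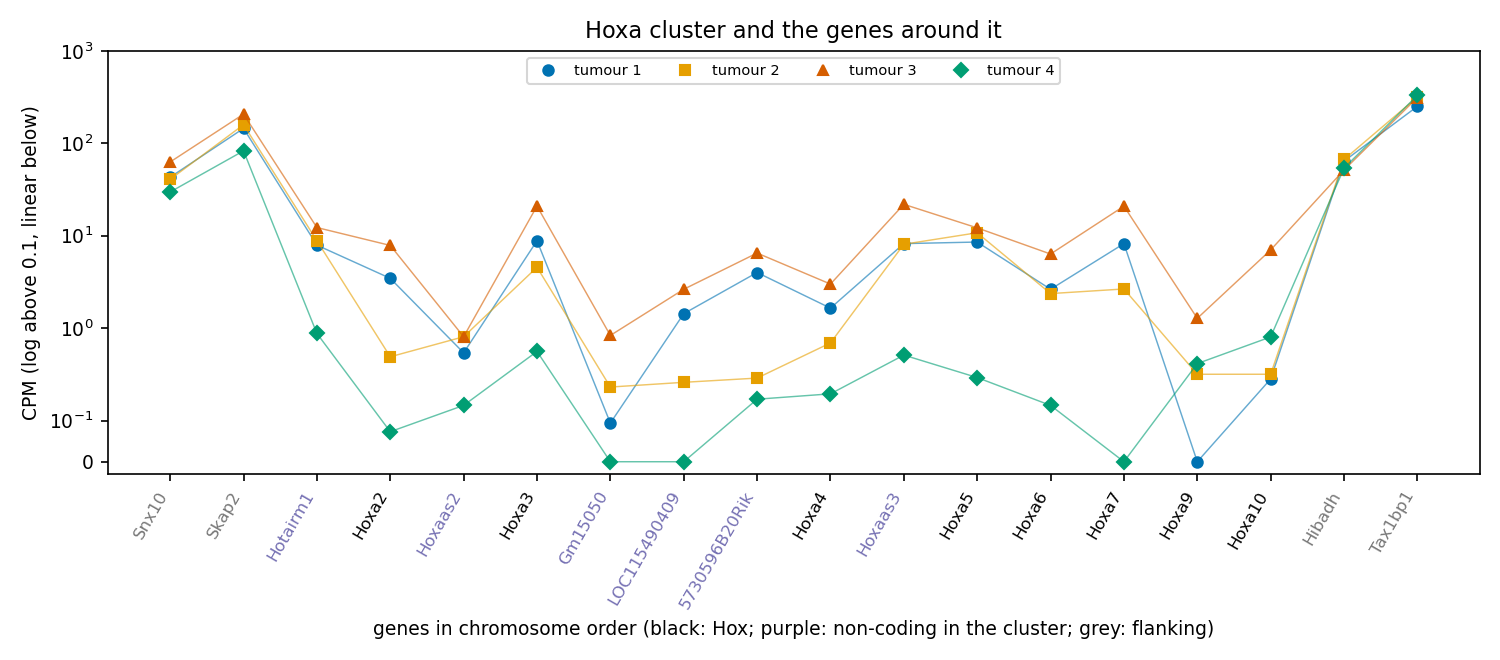
TMM-scaled CPM (log axis above 0.1, linear below) of genes in chromosome order across the Hoxa cluster in each tumour; black names are Hox genes, purple names non-coding RNAs in the cluster and grey names flanking genes. The line of tumour 4 lies below the others from Hoxa2 to Hoxa7, crosses those of tumours 1 and 2 at Hoxa9 and Hoxa10, and joins the others at Hibadh and Tax1bp1; tumour 2 dips at Hoxa2 and at 5730596B20Rik.

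In Hoxb, 4 of 10 genes had at least 10 counts in some tumour. Hoxb4, which promotes expansion of blood stem cells, was the highest with 47, 42, 31 and 50 counts (1.11, 1.21, 0.808 and 1.22 CPM). Hoxb2, a hindbrain gene, had the largest spread of those tested at the minimum in all libraries, with 34, 13, 10 and 26 counts (0.800, 0.375, 0.261 and 0.633 CPM). Hoxb3 had 21 to 39 counts, but 52.9% of its exon length is shared with other genes. None of these passed (edgeR adjusted p = 1.00 for each).

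Hoxb7, which has been tied to growth of human breast cancer cells, was detected in 2 tumours only, with 0, 18, 0 and 24 counts (0, 0.519, 0 and 0.584 CPM). Such zeros need care: some genes with 10 to 40 counts in each of the other libraries were also listed at 0. They were 10 of 990 in tumour 1 and 9 of 1065 in tumour 3. Hoxb7 passed at the minimum in 1 library (edgeR adjusted p = 0.0426), but not without tumour 1 (0.270) or tumour 3 (0.157). Hoxb6 was listed at 8 counts in tumour 4 and 0 elsewhere, and Hoxb13, a gene of the prostate, at 7 counts in tumour 3 and 0 elsewhere. Hoxb5, Hoxb8 and Hoxb9 had 3 counts or fewer in every tumour.

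In Hoxc, 5 of 9 genes had at least 10 counts in some tumour. None passed in edgeR under either minimum, with 0 of 3 and 1 of 5 at an unadjusted p under 0.05, and DESeq2 called 0. Hoxc6, expressed in the developing gland, was the highest with 25, 24, 41 and 59 counts (0.588, 0.692, 1.07 and 1.44 CPM). Hoxc5 had the largest spread of the Hoxc genes tested at the minimum in all libraries, with 16, 23, 21 and 46 counts (0.376, 0.663, 0.547 and 1.12 CPM). Hoxc8 had 13 to 34 counts and Hoxc4 had 8 to 27. Hoxc10 was listed at 0 in tumour 1 and had 13, 32 and 18 counts in tumours 2 to 4 (edgeR adjusted p = 0.322 at the minimum in 1 library). Hoxc9 and Hoxc11 had 8 and 6 counts in tumour 3 and 0 elsewhere, and Hoxc13 had 1 count in all.

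In Hoxd, only Hoxd8 had at least 10 counts in every tumour, with 52, 35, 36 and 36 counts (1.22, 1.01, 0.938 and 0.877 CPM). Its SD of log2 CPM, 0.20, was above that of only 19.0% of genes tested. Hoxd4 had 4 to 26 counts, with 52.3% of its exon length shared with other genes, and Hoxd9 had 2 to 11. Hoxd3, Hoxd10 and Hoxd11 had 4 counts or fewer in every tumour. Among the 12 detected genes of Hoxb, Hoxc and Hoxd, 1 was lowest and 7 were highest in tumour 4. Of all 19023 genes 27.1% were lowest and 28.3% highest there. Some of the 7 led by little. Hoxb4 had 1.22 CPM against 1.21 in tumour 2, and Hoxd9 had 11 counts against 9 in tumours 1 and 3. Of the 12 only Hoxb7 passed the spread test under either count minimum.

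Partners and regulators of Hox genes were read from lists. Of 9 tested TALE cofactors 1 passed, against 3.63% of all genes: Meis2 had 2.54, 6.69, 54.5 and 1.44 CPM, with tumour 3 far above the rest (edgeR adjusted p = 3.91e-07), and DESeq2 called 1 gene of the list too. Without tumour 3, 0 TALE genes passed in edgeR, with 2 at an unadjusted p under 0.05. Meis1, a partner of Hoxa9, had 18.0, 10.5, 21.4 and 1.56 CPM, with tumour 4 lowest, and missed the threshold (0.0757). Of the 10 TALE genes 8 were lowest and 1 was highest in tumour 4. Of all genes with at least 10 counts in some tumour, 27.1% were lowest there. Some of the 8 were lowest by little. Meis3 had 2.12 CPM against 2.24 in tumour 3, Pbx4 0.195 against 0.202 in tumour 2, and Pbxip1 64.5 against 65.4 in tumour 1.

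Of 26 Polycomb genes 1 passed, a share near the 3.63% of all genes. It was Cbx6, with 80.7, 332, 172 and 23.0 CPM (edgeR adjusted p = 0.000185), and DESeq2 called 0. Without tumour 2 and without tumour 4, 0 passed in edgeR, with 1 and 2 genes at an unadjusted p under 0.05. The methyltransferase Ezh2 had 30.0, 27.0, 49.6 and 18.2 CPM and its partner Suz12 had 114, 92.1, 138 and 97.3 CPM. Ezh1 went the other way, with 62.4, 61.1, 50.2 and 71.5 CPM, lowest in tumour 3 and highest in tumour 4. Ezh2, Suz12 and Ezh1 were named after their values were seen. Rbbp7, the most expressed, had 138, 159, 165 and 170 CPM. None of these genes passed. Of 16 Trithorax and MLL genes 0 passed in edgeR under either minimum, with 0 at an unadjusted p under 0.05 and 0 called by DESeq2. Kmt2a, which encodes MLL1, had 180, 245, 166 and 210 CPM, Ash1l had 212, 220, 211 and 279 CPM and Kdm6b had 40.7, 40.1, 66.0 and 32.7 CPM. The summed Trithorax level lay between 1270 and 1313 CPM in all tumours.

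Of 13 tested retinoid genes 3 passed, against 3.63% of all genes. Stra6, the receptor that takes up retinol, had 12.4, 13.8, 270 and 5.72 CPM (edgeR adjusted p = 1.23e-15), Aldh1a3, which makes retinoic acid, had 7.97, 34.7, 75.6 and 103 CPM (0.000777), and Crabp2, which carries it to the nucleus, had 4.45, 8.60, 0.704 and 36.3 CPM (0.000133). The first was highest in the tumour with most Hoxa RNA, whereas the other pair were highest in tumour 4. Rarb, a receptor gene induced by retinoic acid, had 1.13, 1.67, 13.2 and 3.63 CPM (0.0774). At the minimum in 1 library 4 of 18 passed, against 5.01% of all genes, with Rxrg added (3.22, 0.0577, 0.287 and 0.0731 CPM).

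The ParaHox and Cdx genes are relatives of the Hox clusters, and the Cdx genes among them act upstream of Hox genes in the gut and tail. All had 0 counts in every tumour (6 of 6). Of 16 tested genes of other homeobox families 2 passed, against 3.63% of all genes, among them Lhx9, a gonad and limb gene, with 0.376, 0.404, 0.938 and 41.9 CPM (edgeR adjusted p = 9.38e-12). At the minimum in 1 library 5 of 26 passed, namely Dlx1, Dlx2, Dlx3, Irx4 and Lhx9, against 5.01% of all genes. Dlx1 had 2.23, 0.0577, 40.1 and 0.0487 CPM and Dlx2 had 0.376, 0, 11.9 and 0 CPM, both highest in tumour 3. Irx2, the most expressed, had 108, 122, 80.9 and 247 CPM (0.832).

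Marker sums are given beside the Hoxa levels because bulk tumours mix cell types. Fibroblast markers, from a cell type that can carry much Hox RNA, summed to 2516, 2995, 3418 and 3758 CPM in tumours 1 to 4, with tumour 4 highest. Of the 10 markers 4 were highest and 1 was lowest in tumour 4, against 28.3% and 27.1% of all genes. Most of the sum came from 3 collagen genes. Without them the other 7 summed to 138, 179, 173 and 169 CPM, with tumour 1 lowest and tumour 4 below tumours 2 and 3. Basal epithelial markers summed to 94.5, 149, 161 and 369 CPM, also highest in tumour 4, with 4 of 6 past the edgeR spread test (3.63% of all genes passed). Endothelial markers summed to 218, 165, 190 and 164 CPM, with tumour 4 lowest for the sum and for 5 of 7 of them, against 27.1% of all genes; 0 of 7 passed in edgeR, with 0 at an unadjusted p under 0.05 and 0 called by DESeq2. Leukocyte markers summed to 212 to 317 CPM and glia and nerve markers to 414 to 529 CPM. Adipocyte markers summed to 16.1, 43.0, 91.8 and 9.40 CPM, of which Fabp4, a gene of other cells too, gave 90.9 CPM in tumour 3. The other 6 summed to 0.964, 17.1, 0.938 and 1.49 CPM, so tumour 2 stood apart in them. The defining adipocyte marker Adipoq had 0.235, 3.72, 0.182 and 0.268 CPM, and Cfd, a protein that fat cells secrete, had 0.353, 8.28, 0.365 and 0.438 CPM. The part of these cell types in the Hoxa values was not tested.

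Of 7 skeletal muscle markers 7 passed the edgeR spread test at the minimum in 1 library, against 5.01% of all genes. At the minimum in all libraries only 1 could be tested, and it passed. Without tumour 3, 5 were tested at the minimum in 1 library and 0 passed. The 7 markers summed to 1002 CPM in tumour 3 and to 1.79, 2.08 and 1.61 CPM in tumours 1, 2 and 4. Their part in the tumour 3 values of Hoxa10, Meis2 and the Hoxa sum was not tested. Summed Hoxa was 14.1-fold higher in tumour 1 than in tumour 4 and 9.94-fold higher in tumour 2 than in tumour 4. Hoxa5 was 29.2-fold (16.5 to 57.1) higher in tumour 1 than in tumour 4 and 36.8-fold (20.8 to 71.9) higher in tumour 2 than in tumour 4.

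**Figure D5:**
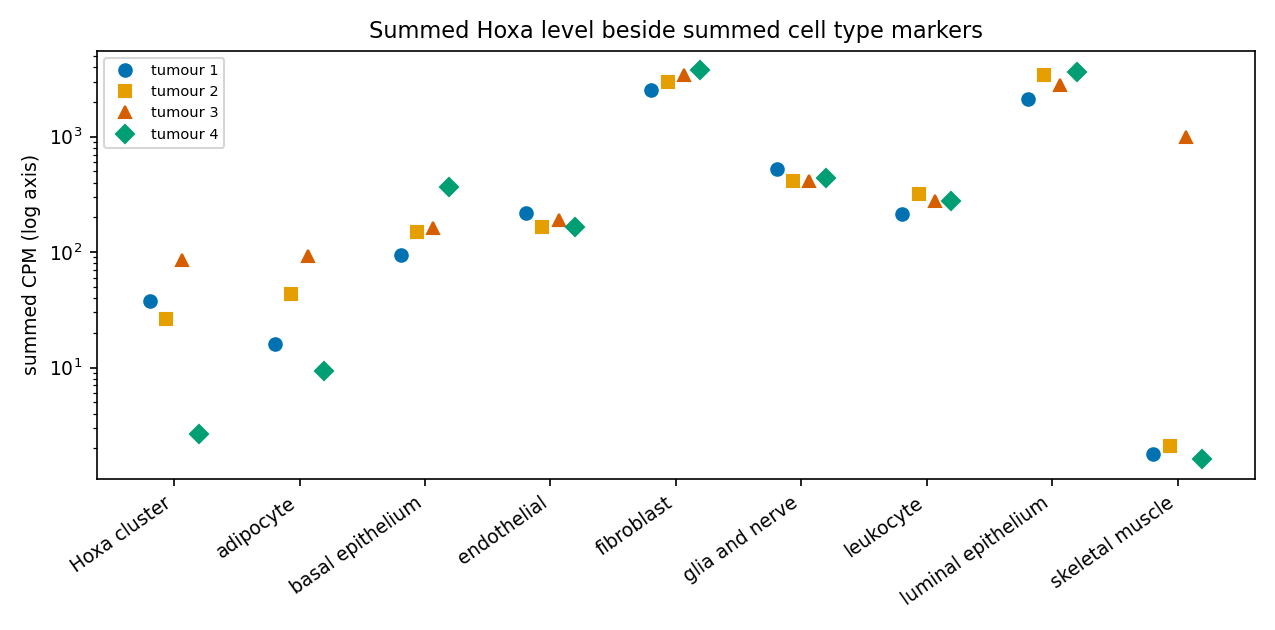
Summed TMM-scaled CPM (log axis) of the Hoxa cluster and of each list of cell type markers in each tumour. Tumour 4 is lowest for the Hoxa cluster at 2.65 CPM and for adipocyte markers. By little it is lowest for endothelial (164 against 165 CPM in tumour 2) and skeletal muscle markers (1.61 against 1.79 CPM in tumour 1). It is highest for fibroblast, luminal and basal epithelial markers. Without Fabp4 the adipocyte sum is not lowest in tumour 4, and without 3 collagen genes the fibroblast sum is not highest there. Tumour 3 is far above the others for skeletal muscle markers at 1002 CPM.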

How the data were processed

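Poly-A RNA of 4 tumours was fragmented, copied by random priming and sequenced as paired reads, per the labels' protocols. The authors deposited 1 table of raw whole-number counts per gene, with Entrez gene numbers as rows and 1 column per tumour. The submitters' processing notes name FastQC and the builds GRCm38 and mm10. Which aligner and counter made the table, and whether strand was used, is not given in the sources used here. Of 28440 rows, 24480 (86.08%) were matched to a symbol through RefSeq (GRCm38.p6), and the other 3960 stayed in library sizes and tests. The number of per-sample columns left unused was 0. Exon lengths and exon overlaps came from GENCODE on GRCm38, gene spans from RefSeq.

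Depth was 42809015, 35220504, 36885892 and 41756363 counts in tumours 1 to 4. Counts were scaled by TMM in edgeR 4.0.16 (R 4.3.3), with a prior count of 2 for log2 CPM. With 1 group no contrast exists, so a model with an intercept alone was fitted to each gene under the trended negative binomial dispersion. The residual deviance gave a chi-square p, which was adjusted by Benjamini-Hochberg across every tested gene (threshold 0.05). The main count minimum was that of filterByExpr, 10 counts in every one of the 4 libraries, scaled to their median size, and the alternative asked for it in 1 library. Ratios between tumours carry exact 95% counting intervals, and shares carry exact (Clopper-Pearson) binomial intervals; both cover counting error only. Alternatives were RLE and unscaled libraries, other count minimums, other prior counts, DESeq2 1.42.0 dispersion outliers and leaving out each tumour. The combination of a minimum in 1 library with leaving out a tumour was chosen after seeing the data.

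The 39 members and all gene lists were chosen with earlier results of these data known. Values in every tumour are given for Hox genes past the test, the 10 highest per kilobase, the highest and the most variable tested member of each cluster and members with a tumour that stands apart. From each list they are given for members past the test, the highest and the most variable. Other members, among them Hoxb7 and the genes of the Hoxa non-coding stretch, were named after their values were seen. Promoter letters were searched by exact match on both strands. Protein sequences were not used here, and some genes that the rule takes are not reported here.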

Additional observations from a re-analysis of the deposited data

Results flagged for a closer look

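Each of 27 sets of 4 tumour values (tested Hox genes, cluster sums and named genes of the lists) was searched for a tumour that stands apart, by the gap of the highest or lowest log2 CPM to its nearest neighbour as a share of the whole range. A share above Dixon's 95% critical value was noted, which chance alone gives in about 5% of such sets, and 3 of 27 were noted. For Hoxa5 the share was 0.902, with tumour 4 lowest at -1.54 and the others at 3.10, 3.43 and 3.61 log2 CPM in tumours 1 to 3. For the summed Hoxd cluster it was 0.864, with tumour 1 highest at 1.03 and the others at 0.50 to 0.57, a difference of under 1.5-fold on the linear scale. For Ash1l, a Trithorax gene, it was 0.861, with tumour 4 highest at 8.13 and the others at 7.72 to 7.78.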

How the results depend on the processing

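No paired analysis was possible because all 4 tumours belong to 1 group. The count of 3 Hox genes past the edgeR spread test became 5 with no count filter, 6 with the minimum in 1 library, 0 as DESeq2 dispersion outliers, and 1 to 3 when a tumour was left out (2 to 4 with the minimum in 1 library). RLE scaling, no scaling and a mean of at least 5 CPM moved it by less than 1.5-fold. The count of 574 over all genes became 895, 945 and 91 under the first 3 of these and 367 to 417 with a tumour left out (601 to 676 with the minimum in 1 library). Among the lists, cluster RNAs went to 0 in DESeq2 and 0 to 1 with a tumour left out, Polycomb genes to 0 and 0 to 1, TALE genes to 0 to 1 with a tumour left out, and retinoid genes to 1 in DESeq2. Other homeobox genes went to 5 with no filter, 5 with the minimum in 1 library, 1 in DESeq2 and 1 to 5 with a tumour left out. The median SD of log2 CPM of the tested Hox genes was 0.40 to 0.72 with a tumour left out, lowest without tumour 4. No Hox gene (0) reached 1 CPM in all tumours. The mean Hoxb sum was 1.68 CPM without Hoxb4 and 0.366 CPM without members whose span overlaps another gene, and the mean Hoxd sum 0.578 CPM without Hoxd8 and 0.193 CPM without such members; the Hoxa and Hoxc sums stayed within 1 SD of their means. Over single genes, 164 pairs of gene and setting kept their side of the threshold and 18 lost it. The cause of these changes was not tested, except that fewer tumours or other gene sets enter by construction. With 4 tumours and few counts for most Hox genes, differences among the lowest members were not detectable at this depth.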
